A study of Mus musculus with 2 samples.

Results

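The glucocorticoid receptor gene Nr3c1 and 5 of its well-known target genes (Tsc22d3, Sgk1, Fkbp5, Zbtb16 and Klf9) were followed in splenic natural killer (NK) cells of mice under dietary restriction (DR) and of control mice. The 6 genes were taken by symbol from the 32285 genes listed, and all 6 had counts in both libraries. The cells were sorted from spleen by flow cytometry and sequenced as droplet-based 3' single-cell libraries, in which each captured transcript carries a unique molecular identifier (UMI). There was 1 DR library and 1 control library, so differences between them had no replicate check and no test was possible. The sources used here give neither the strain, sex, age and number of the mice nor the diet, its duration or the sorting gate. Both groups share the tissue, the use of flow cytometry for sorting and the chemistry.

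Glucocorticoids are adrenal steroid hormones whose blood level rises with fasting and other stress. The unliganded receptor is held in the cytoplasm by heat shock protein chaperones, and the bound receptor enters the nucleus, where it raises transcription at response elements and lowers inflammatory transcription driven by NF-kB and AP-1. Lymphocytes express the receptor widely, and in NK cells glucocorticoids are known to restrain cytokine production.

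A Sgk1 and a Tsc22d3 promoter are shown, the one with the full motif and the Tsc22d3 window with part of it, because the palindrome bound by the receptor does not depend on the counts. The genes were chosen as known targets of the receptor, so a match in them is not independent of that choice. The RefSeq promoter table (build GRCm38.p6) held 11 windows, each from 250 bases before to 50 bases after an annotated start, for 4 of the 6 genes. These were 6 windows for Sgk1, 3 for Tsc22d3 and 1 each for Fkbp5 and Klf9. The full palindromic response element was searched as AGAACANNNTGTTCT, which is its own reverse complement. It occurred in 1 Sgk1 window, starting 189 bases before the start site, and in 3 of 32851 windows of the same length genome-wide (0.00913%), that Sgk1 window among them. One arm of it, AGAACA, searched on both strands and counted also inside the full element, occurred in 4 of the 11 windows and in 19.0% of all windows. Those 4 windows were 3 of Sgk1 and 1 of Tsc22d3. A form with looser arms and the same spacing, GNACANNNTGTNC, which also takes in the full element, occurred in the same single Sgk1 window and in 0.475% of all windows. The 250 bases before the start are given 5′ to 3′ on the strand of the gene, with matches in capitals. A match is a string of letters in these windows and says nothing about binding.
Sgk1, chr10:21993640-21993889, plus strand: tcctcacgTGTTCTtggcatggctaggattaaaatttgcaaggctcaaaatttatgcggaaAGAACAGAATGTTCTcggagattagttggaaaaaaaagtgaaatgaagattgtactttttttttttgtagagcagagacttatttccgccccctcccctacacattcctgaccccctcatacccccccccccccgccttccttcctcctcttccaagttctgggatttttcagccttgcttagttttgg
Tsc22d3, chrX:140600523-140600772, minus strand: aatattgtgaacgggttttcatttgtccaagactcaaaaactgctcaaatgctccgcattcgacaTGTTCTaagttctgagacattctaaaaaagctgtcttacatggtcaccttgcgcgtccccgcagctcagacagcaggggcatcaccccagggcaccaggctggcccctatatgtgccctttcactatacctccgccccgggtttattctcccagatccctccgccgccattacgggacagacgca
In the mm10 annotation (GENCODE M21) Sgk1 (ENSMUSG00000019970) spans chromosome 10 from 21882184 to 21999903 on the plus strand, and Tsc22d3 (ENSMUSG00000031431) spans chromosome X from 140539528 to 140600659 on the minus strand. Fkbp5 (ENSMUSG00000024222) lies on chromosome 17 from 28399094 to 28517527 (minus strand), Klf9 (ENSMUSG00000033863) on chromosome 19 from 23141226 to 23168134 (plus strand) and Zbtb16 (ENSMUSG00000066687) on chromosome 9 from 48654297 to 48836222 (minus strand).

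The DR library held 6287 barcodes and 42134212 UMIs (median 5782 per barcode), and the control library 5702 barcodes and 44526828 UMIs (median 7152). The libraries shared 13 barcodes. After filtering, NK-like cells numbered 4503 in DR and 4711 in control, ILC1-like cells (tissue-type innate lymphoid cells) 413 and 299, B-like cells 452 and 123, and T-like cells 290 and 3. All 10 NK markers stood at 20 counts per 1000000 UMIs (CPM) or more in NK-like cells of both libraries. NK-like cells were staged by their Cd27 and Itgam UMIs, which mark early and late splenic NK cells: 913 DR and 659 control cells held Cd27 only, 974 and 1091 held both, 1566 and 2233 held Itgam only, and 1050 and 728 held neither. Because DR cells were shallower (median 5473 against 7119 UMIs in NK-like cells), the share with neither transcript, 23.3% in DR and 15.5% in control, is read with care: at 3000 UMIs per cell it was 43.8% and 39.7%. The largest NK-like cluster differed between the libraries: a cluster led by Ly6c2 and Gm10522 held 41.6% in DR and 12.99% in control, and one led by Cx3cr1 and Gpx8 held 9.02% in DR and 42.1% in control, while the second in both, led by Ccr2 and Ctla2a, held 37.4% and 22.4%. Levels below are summed UMIs of a cell class in CPM, with 95% counting intervals that cover counting error only.

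The first question was whether the receptor and its targets differed between the libraries, and whether the targets differed in 1 direction. They did not move as a block. Tsc22d3 was higher in DR NK-like cells, Sgk1, Nr3c1 and Zbtb16 were lower, and Fkbp5 and Klf9 stayed between the limits. A gene was called lower at a DR to control ratio of at most 0.8 and higher where the inverse ratio was at most 0.8, provided that the counting interval did not span equality. By that rule 1 of the 6 genes was higher and 3 were lower. Of the 5859 genes averaging 20 CPM or more, 3.07% were higher and 7.99% lower, and the median log2 ratio of DR over control was -0.066. With median-of-ratios scaling, which sets that median to 0, the 180 higher and 468 lower genes became 312 and 271. Zbtb16 and Klf9 lay under 20 CPM, and from 5 CPM the background was 5.85% higher and 9.08% lower. DR and control differ in the mix of clusters named above, and values within clusters are given further on.

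Nr3c1, the receptor itself, stood at 86.9 CPM in DR NK-like cells (83.5 to 90.4, 2446 UMIs) and at 129 CPM in control NK-like cells (126 to 133, 4853 UMIs). The log2 ratio of DR over control was -0.57 (-0.65 to -0.50). The deficit appeared in each NK stage. DR against control levels were 72.4 and 94.4 CPM in Cd27-only cells, 86.5 and 120.3 CPM in double-positive cells, 103 and 152 CPM in Itgam-only cells and 81.9 and 123 CPM in cells with neither. Within each library Nr3c1 was higher in Itgam-only than in Cd27-only cells, by 0.50 on the log2 scale in DR and 0.69 in control. In the order of levels, DR ran from ILC1-like (123 CPM) through Itgam-only and double-positive NK cells to T-like cells (62.6 CPM). The neighbours from double-positive through B-like, neither and Cd27-only to T-like were not apart beyond counting error. In control, Itgam-only NK cells came first, ILC1-like (132 CPM), neither and double-positive cells followed without separation between neighbours, and Cd27-only and B-like cells (92.7 CPM) were lowest and not apart.

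Tsc22d3, which encodes GILZ, a leucine zipper protein that binds NF-kB and AP-1, was the one gene of the 6 that was higher. It stood at 238 CPM in DR NK-like cells (232 to 243, 6685 UMIs) and at 153 CPM in control NK-like cells (149 to 157, 5732 UMIs), a log2 ratio of 0.64 (0.58 to 0.69). DR against control levels were 173 and 88.0 CPM in Cd27-only cells, 232 and 141 CPM in double-positive cells, 286 and 186 CPM in Itgam-only cells and 254 and 160.4 CPM in cells with neither. Every DR stage thus lay above the same control stage, and the log2 ratio was 0.97 (0.83 to 1.12) in Cd27-only cells and 0.62 (0.54 to 0.70) in Itgam-only cells. The DR level of Cd27-only cells lay near the control level of Itgam-only cells. With each cell thinned to 3000 UMIs, which kept 4289 of 4503 DR and 4433 of 4711 control NK-like cells, no Tsc22d3 UMI was seen in 51.3% of DR and 63.9% of control NK-like cells. Exactly 1 was seen in 29.3% and 25.9%, and 5 or more in 31 of 4289 DR and 6 of 4433 control cells. The order of levels in DR was B-like (356 CPM) and T-like (346 CPM), which were not apart, then Itgam-only, neither, double-positive, Cd27-only and ILC1-like (146 CPM), each apart from the next. Control kept B-like first (249 CPM) and the same order of NK stages, with ILC1-like (91.6 CPM) and Cd27-only cells last and not apart.

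Sgk1 encodes a serum- and glucocorticoid-regulated kinase that acts downstream of PI3K. It had the ratio farthest from 0 on the log2 scale among the 6 genes and went the other way from Tsc22d3: 27.3 CPM in DR NK-like cells (25.4 to 29.3, 768 UMIs) against 56.7 CPM in control NK-like cells (54.3 to 59.2, 2126 UMIs), a log2 ratio of -1.06 (-1.18 to -0.94). DR against control levels were 14.9 and 23.4 CPM in Cd27-only cells, 20.9 and 49.4 CPM in double-positive cells, 39.5 and 74.7 CPM in Itgam-only cells and 32.8 and 59.3 CPM in cells with neither. All 4 stages were lower in DR, with the ratio farthest from 0 in double-positive cells (log2 -1.24, -1.52 to -0.98). Sgk1 was low outside NK-like and T-like cells. ILC1-like cells held 7.15 CPM in DR and 9.42 CPM in control, and B-like cells 5.17 and 5.71 CPM, against 50.05 CPM in the T-like cells of the DR library. In thinned cells, a Sgk1 UMI was found in 8.07% of DR and 15.7% of control NK-like cells, against 2.51% and 2.56% of B-like cells. Before thinning these shares were 13.2% and 29.2% in NK-like cells and 3.76% and 6.50% in B-like cells, whose median depths were 6886 UMIs in DR and 8727 in control. By level, DR ran from T-like through Itgam-only and neither (not apart), double-positive, Cd27-only and ILC1-like to B-like cells. Control ran from Itgam-only through neither, double-positive and Cd27-only to ILC1-like and B-like cells, and in both libraries ILC1-like and B-like cells were not apart.

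Fkbp5 encodes FKBP51, a co-chaperone that lowers the affinity of the receptor for hormone and is induced by it in a feedback loop. It was 50.5 CPM in DR NK-like cells (47.9 to 53.2, 1420 UMIs) and 45.3 CPM in control NK-like cells (43.2 to 47.5, 1698 UMIs), a log2 ratio of 0.16 (0.05 to 0.26) that lay between the limits. It was also nearly flat along NK stages. Levels ran from 44.5 to 54.2 CPM over the 4 DR stages and from 41.1 to 47.3 CPM over the 4 control stages, and no neighbouring stages were apart in either library. ILC1-like cells led in both libraries, with 84.1 CPM in DR and 71.3 CPM in control, and B-like cells came last with 25.8 and 12.8 CPM.

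Klf9, a Krüppel-like transcription factor, stood at 21.5 CPM in DR NK-like cells (19.8 to 23.2, 604 UMIs) and 17.9 CPM in control NK-like cells (16.6 to 19.3, 670 UMIs), a log2 ratio of 0.26 (0.10 to 0.42). That lay between the limits, but Klf9 was called higher in Itgam-only cells, at 30.9 CPM in DR and 21.8 CPM in control (log2 0.50, 0.27 to 0.74). It was also called higher in Cd27-only cells, at 16.5 and 12.2 CPM (log2 0.44, 0.02 to 0.87), an interval that all but reached 0. The call over all NK-like cells depended on the weighting: Klf9 passed the limit with median-of-ratios scaling (log2 0.33) and with the 7 largest NK-like clusters weighted equally (0.49). By level, Itgam-only and ILC1-like cells led in DR (30.9 and 25.3 CPM, not apart), ahead of the other 3 NK stages, which were not apart, and B-like and T-like cells were lowest (9.11 and 5.86 CPM). In control Itgam-only cells led alone, and Cd27-only, ILC1-like and B-like cells were lowest and not apart.

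Zbtb16 encodes PLZF, a zinc finger factor of innate-like lymphocytes and their precursors. It was called lower, with 6.36 CPM in DR NK-like cells (5.46 to 7.36, 179 UMIs) and 9.52 CPM in control NK-like cells (8.56 to 10.6, 357 UMIs), a log2 ratio of -0.58 (-0.85 to -0.32). In thinned cells a Zbtb16 UMI was found in 1.87% of DR and 3.02% of control NK-like cells. The same shares were 0.228% and 0.855% in B-like cells, which served as the background for free RNA. Before thinning, they were 3.64% and 6.81% in NK-like cells and 0.664% and 0.813% in B-like cells. ILC1-like cells led in DR at 16.9 CPM, apart from the NK stages, which ran from 4.42 to 8.04 CPM with no neighbours apart. In control ILC1-like cells (12.8 CPM) were not apart from Itgam-only cells (12.1 CPM), and Cd27-only cells (4.86 CPM) were lowest among the NK stages.

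**Figure D1:**
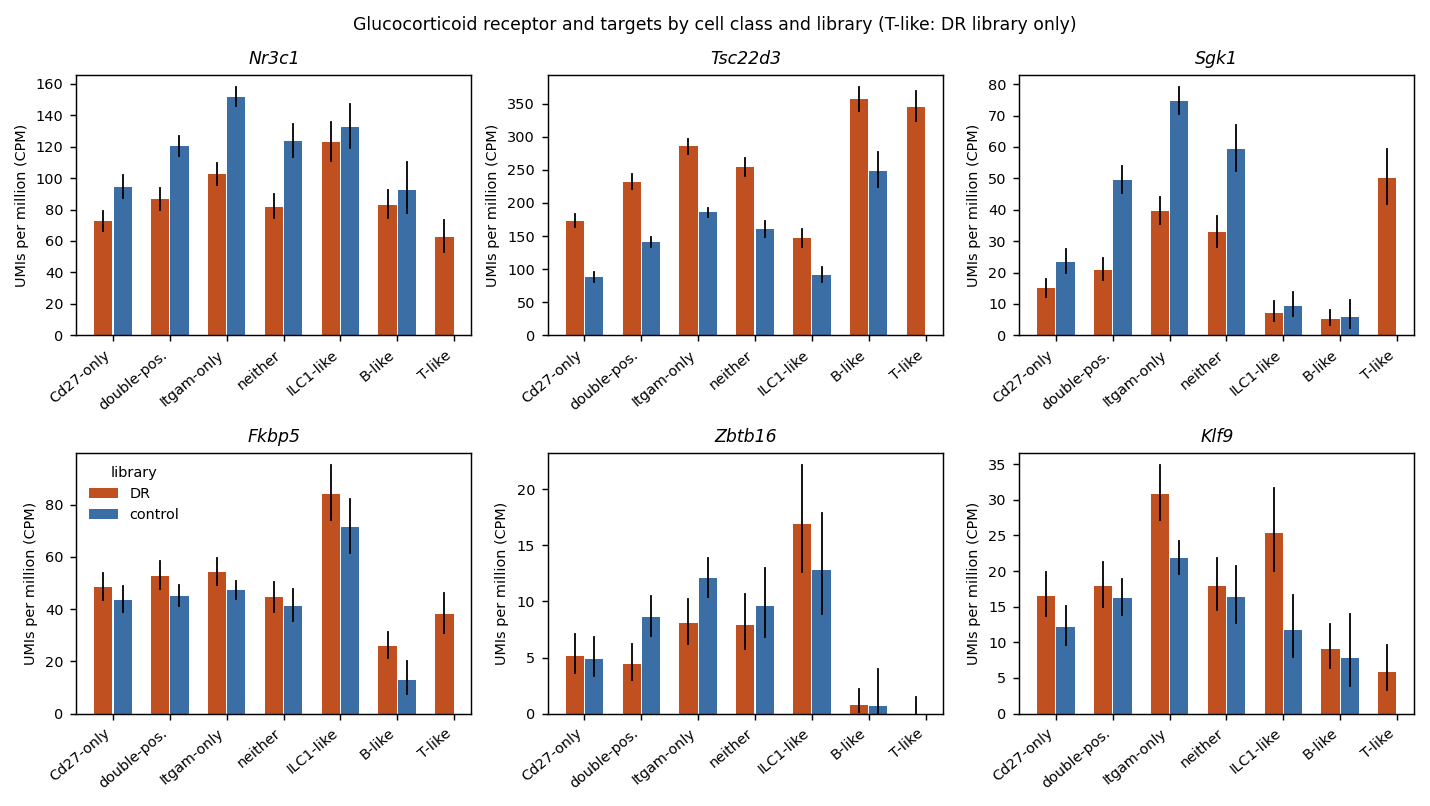
Level of each gene (CPM of the summed cell class; linear axes from 0) in the 4 NK stages and in ILC1-like, B-like and T-like cells, DR left of control; lines are 95% Poisson intervals and T-like cells are shown for DR alone. Tsc22d3 bars are higher in DR in every class with both libraries, whereas Sgk1 and Nr3c1 bars are lower in DR in each NK stage.

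Over the 4 stages and 6 genes, 6 of 24 ratios of DR over control were called higher and 10 were called lower. Among all genes from 20 CPM, the shares higher and lower were 4.31% and 10.6% in Cd27-only, 4.61% and 10.4% in double-positive, 4.27% and 8.64% in Itgam-only and 4.51% and 9.43% in cells with neither. From 5 CPM, the floor that takes in Klf9, the low Sgk1 values and Zbtb16 outside Cd27-only cells, they were 5.65% and 10.5%, 6.59% and 10.7%, 7.03% and 9.08%, and 5.52% and 8.12% in the same order of stages. Tsc22d3 gave 4 of the 6 higher calls and Klf9 gave 2. Nr3c1 and Sgk1 gave 4 lower calls each, and Zbtb16 gave 2. Those of Zbtb16 were in double-positive cells, with 4.42 CPM in DR and 8.58 CPM in control (log2 -0.96, -1.58 to -0.36), and in Itgam-only cells, with 8.04 and 12.1 CPM (log2 -0.59). In Cd27-only cells Zbtb16 held 5.12 CPM in DR and 4.86 CPM in control. The plot of ratios by class shows Tsc22d3 and Sgk1 on opposite sides of 0 in each stage.

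**Figure D2:**
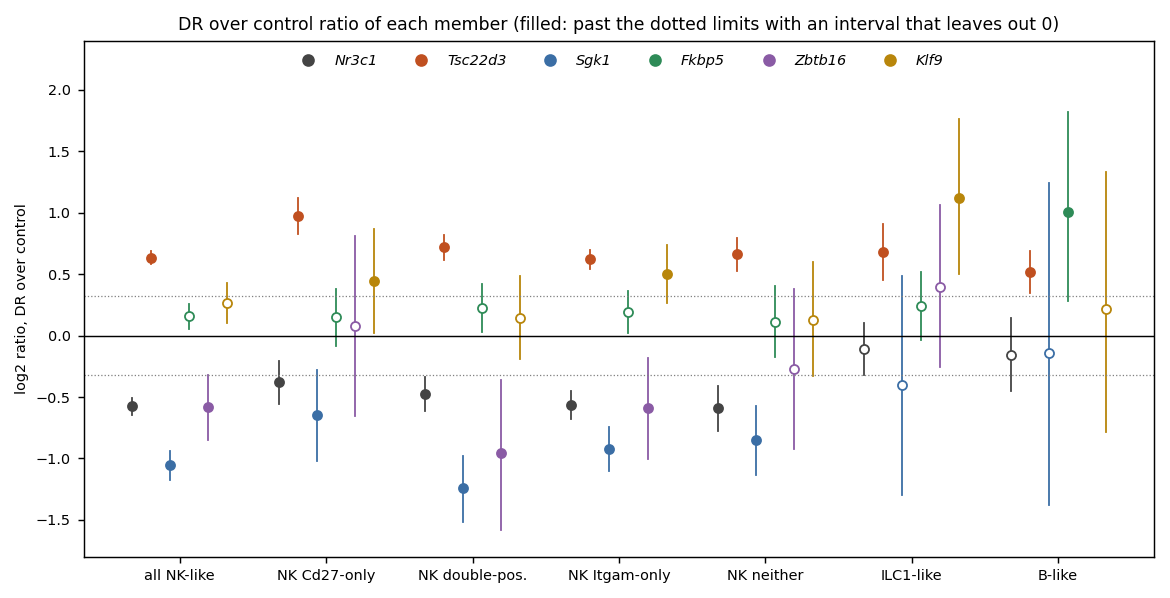
Log2 ratio of DR over control for each gene in all NK-like cells, in the 4 NK stages and in ILC1-like and B-like cells, with 95% counting intervals; dotted lines mark the limits for a call, filled points are called, and Zbtb16 in B-like cells (3 DR UMIs and 1 control UMI) is not drawn. Tsc22d3 is filled and above 0 in all 7 classes, at 0.52 to 0.97.

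Outside NK-like cells the comparison of DR with control gave 4 higher and 0 lower calls among 12 values. In ILC1-like cells 4.29% of genes from 20 CPM were higher and 10.1% lower, and in B-like cells 3.73% and 9.86%. From 5 CPM the shares were 4.08% and 8.51% in ILC1-like and 3.51% and 7.98% in B-like cells. Tsc22d3 was higher in both types, with 146 CPM in DR and 91.6 CPM in control ILC1-like cells (log2 0.68, 0.45 to 0.91) and with 356 and 249 CPM in B-like cells (log2 0.52, 0.35 to 0.69). NK-like, ILC1-like and B-like cells thus all held more Tsc22d3 in DR. Klf9 stood at 25.3 CPM in DR ILC1-like cells (78 UMIs) and 11.7 CPM in control ILC1-like cells (31 UMIs), a log2 ratio of 1.12 (0.50 to 1.77). Fkbp5 stood at 25.8 CPM in DR B-like cells (105 UMIs) and 12.8 CPM in control B-like cells (18 UMIs), a log2 ratio of 1.01 (0.28 to 1.82). Nr3c1 and Sgk1, lower in each NK stage, were between the limits in both types: for Nr3c1 the log2 ratio was -0.11 (-0.32 to 0.11) in ILC1-like and -0.16 (-0.45 to 0.15) in B-like cells. The Sgk1 intervals there, -1.30 to 0.49 and -1.38 to 1.24, hold the value seen in NK-like cells, so at this depth a difference between types was not detectable. For Nr3c1 both intervals leave out the NK-like value of -0.57, and the difference between types was not tested.

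Since the libraries differed in which clusters held their NK-like cells, the genes were compared within the 7 NK-like clusters that had at least 50 cells in each library. The genes described here and the pathway genes below took no part in the clustering. In these clusters 3.36% to 9.6% of genes from 20 CPM were higher in DR and 5.52% to 25.7% lower. Tsc22d3 was higher in 6 of the 7, at log2 ratios of 0.60 to 0.92. In the cluster led by Ccr2 and Ctla2a it stood at 220.0 CPM in DR and 128 CPM in control, and in the Cx3cr1 and Gpx8 cluster at 314 and 204 CPM. The exception was the cycling cluster led by Hist1h1b and Pclaf (73 DR and 131 control cells), with 74.2 and 74.0 CPM. Nr3c1 was lower in 5 of the 7 clusters, and Sgk1 also in 5. Zbtb16 was lower only in the Ccr2 and Ctla2a cluster (4.995 and 8.51 CPM, log2 -0.77) and in the cycling cluster (2 DR and 22 control UMIs). From 5 CPM, 6.17% and 19.2% of genes were lower in these clusters. In the others Zbtb16 lay between the limits. Fkbp5 was higher in the Ccr2 and Ctla2a, Cx3cr1 and Gpx8, and Ccl4 and Spp1 clusters and lower in the cycling one, with values given at the end. The cluster led by Batf3 and Gpr55 held the least Tsc22d3 (64.1 CPM in DR, 41.9 CPM in control). It also held the least Sgk1 (2.096 and 5.64 CPM), and its leading genes include the CD3 chain gene Cd3d. Klf9 was higher in the Ly6c2 and Gm10522 cluster, with 28.4 CPM in DR and 16.6 CPM in control, and in the Cx3cr1 and Gpx8 cluster, with 45.9 and 26.5 CPM.

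**Figure D3:**
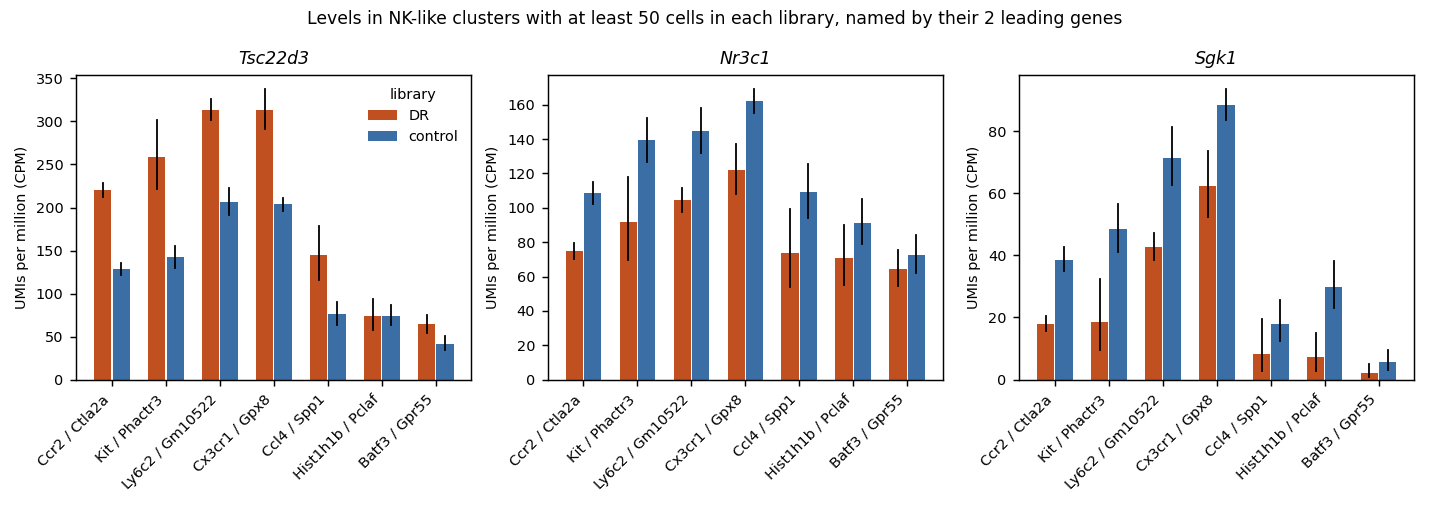
Tsc22d3, Nr3c1 and Sgk1 levels (CPM, linear axes from 0) in the 7 NK-like clusters with at least 50 cells in each library, each named by its 2 leading genes, DR left of control, with 95% Poisson intervals. Tsc22d3 bars are higher in DR except in the cycling Hist1h1b and Pclaf cluster (74.2 and 74.0 CPM).

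Summed markers of B and T cells were higher in NK-like cells of DR than of control. The 7 B cell markers summed to 395 CPM in DR NK-like cells (3 at 20 CPM or more) and 124 CPM in control NK-like cells (1 at 20 CPM or more), and to 1220 and 251 CPM in cells with neither stage transcript. None of the 7 was at 0 in all NK-like cells. Ighm made up 306 and 101 of the 395 and 124 CPM. It also stood at 230 CPM in DR and 257 CPM in control ILC1-like cells, and the source of the B cell marker counts was not tested. Cd79a stood at 32.8 and 6.64 CPM in NK-like cells and at 3110 and 3043 CPM in B-like cells. Set against B-like cells of the same library, the 7 markers together, Ighm included, correspond to 2.55% of the B-like level in DR and 0.995% in control. At those shares B-like RNA would carry 9.10 of the 238 CPM of Tsc22d3 in DR and 2.48 of the 153 CPM in control. In cells with neither stage transcript the markers correspond to 7.88% of the B-like level in DR and 2.02% in control. There B-like RNA would carry 28.1 of the 254 CPM of Tsc22d3 in DR and 5.03 of the 160.4 CPM in control. The 9 T cell markers summed to 107 and 74.2 CPM, with Cd8b1 at 0 in control. Cd3d (42.0 and 33.4 CPM) and Cd3g (30.3 and 21.9 CPM) led these sums, and control held only 3 T-like cells. Cd3e stood at 2.70 and 0.213 CPM and Cd8b1 at 4.80 and 0 CPM. In DR NK-like cells Cd3e, Cd8b1, Trac and Cd5 together correspond to 0.96% of the T-like level. At that share T-like RNA would carry 3.32 of the 238 CPM of Tsc22d3 in DR. The source of the T cell marker counts was not tested. Plasma cell markers summed to 145 CPM in DR and 66.4 CPM in control NK-like cells and myeloid markers to 368 and 202 CPM, and their part in the results was not tested. The median mitochondrial share over all barcodes was 2.57% in DR and 1.63% in control, and the 7 cycling markers summed to 212 CPM in DR and 423 CPM in control NK-like cells. With cells of at most 5% mitochondrial UMIs the log2 ratio of DR over control was 0.64 for Tsc22d3, -1.06 for Sgk1, -0.58 for Nr3c1 and -0.58 for Zbtb16. Without the low-RNA, cycling and Ccl4 and Spp1 clusters the ratios were 0.60, -1.09, -0.61 and -0.59. NK-like cells that held at least 2 UMIs of B, T, plasma or myeloid markers numbered 1251 in DR and 1216 in control. Cd74, Cst3, Xbp1, Cd3d and Cd3g were not counted among those markers. Leaving out those cells gave a Tsc22d3 log2 ratio of 0.63, and the Sgk1 ratio was then -0.999.

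The second comparison followed the genes along NK maturation, from Cd27-only to Itgam-only cells of the same library. All but Fkbp5 were higher in Itgam-only cells of both libraries, 10 of 12 values in all, and none was lower. Among all genes from 20 CPM, 18.2% were higher and 7.3% lower in DR, and 22.1% and 11.8% in control; from 5 CPM the shares were 17% and 9.15% in DR and 20.5% and 14.5% in control. Sgk1 was farthest from 0, at 39.5 CPM in Itgam-only and 14.9 CPM in Cd27-only cells of DR (log2 1.40, 1.08 to 1.73), and at 74.7 and 23.4 CPM in control (log2 1.68, 1.43 to 1.93). Tsc22d3 gave log2 ratios of 0.72 (0.62 to 0.82) in DR and 1.08 (0.95 to 1.21) in control. Those of Klf9 were 0.90 and 0.84, and those of Zbtb16 0.65 (0.05 to 1.28) and 1.31 (0.77 to 1.90). Fkbp5 stayed at 0.16 (-0.04 to 0.37) in DR and 0.12 (-0.08 to 0.32) in control. Along this axis the receptor and 4 targets thus shared a direction, while between libraries they did not. With stages taken from thinned cells, or with median-of-ratios scaling, 9 of the 12 values were called.

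The third comparison set ILC1-like, T-like and B-like cells against NK-like cells of the same library. The genes sorted into different patterns. Of 30 values, 8 were called higher and 18 lower. The background was 15.3% higher and 10.6% lower for ILC1-like cells in DR and 16% and 11.7% in control. For B-like cells it was 16.4% and 46.1% in DR and 17.1% and 43.8% in control, and for T-like cells of DR 12.3% and 45.3%. From 5 CPM these shares were 16% and 10% for ILC1-like cells in DR and 17.3% and 11% in control, 17.5% and 41.3% for B-like cells in DR and 17.2% and 36.8% in control, and 13.1% and 39.7% for T-like cells. Median-of-ratios scaling moved all B-like and T-like log2 ratios up by about the all-gene medians of -0.28 (B-like, DR), -0.30 (B-like, control) and -0.29 (T-like, DR).

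In ILC1-like cells Sgk1 was lower than in NK-like cells, with log2 ratios of -1.93 (-2.62 to -1.32) in DR and -2.59 (-3.22 to -2.02) in control, and Tsc22d3 was lower, at -0.70 and -0.74. Fkbp5 was higher there, at 0.74 (0.54 to 0.93) in DR and 0.65 (0.43 to 0.87) in control. These 3 genes behaved alike in both libraries. Nr3c1 and Zbtb16 were higher in ILC1-like cells in DR alone, at 0.50 and 1.41, and stood at 0.03 (-0.13 to 0.19) and 0.43 (-0.12 to 0.94) in control; the difference between libraries was not tested. Klf9 was lower in control ILC1-like cells (-0.61, -1.18 to -0.09) and stood at 0.24 in DR. Against the Cd27-only NK stage, ILC1-like cells held more Zbtb16 in both libraries, with 16.9 and 5.12 CPM in DR (log2 1.72) and 12.8 and 4.86 CPM in control (log2 1.40). Nr3c1 was higher there too, at 0.76 in DR and 0.49 in control, as was Fkbp5, at 0.80 and 0.71, and Sgk1 was lower, at -1.07 and -1.31. Tsc22d3, lower against all NK-like cells, stood between the limits against Cd27-only cells, at -0.24 and 0.06. Here 16.8% of genes from 20 CPM were higher and 6.45% lower in DR, and 18% and 7.85% in control; from 5 CPM, the floor that takes in Zbtb16, the shares were 16% and 6.51% in DR and 17.2% and 7.62% in control.

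In B-like cells Tsc22d3 was higher than in NK-like cells, at log2 ratios of 0.58 in DR and 0.70 in control, while Sgk1, Fkbp5, Klf9 and Zbtb16 were lower in both libraries. Klf9 in control turned to 0.16 with per-cell means. Tsc22d3 was also higher in the 290 T-like cells of DR, at 346 CPM against 238 CPM in NK-like cells (log2 0.54, 0.44 to 0.64), and so was Sgk1, at 50.05 against 27.3 CPM (log2 0.87, 0.59 to 1.15). Zbtb16 had 0 UMIs in these T-like cells, against 6.36 CPM in NK-like cells. If the T-like class is set at a floor of 3 counts (1.17 CPM), NK-like cells were 5.42-fold higher. The 95% counting interval of the log2 ratio of T-like over NK-like cells ran up to -2.13, which allows a smaller difference. Nr3c1 was lower in T-like cells (log2 -0.47) and in control B-like cells (-0.48), and both moved between the limits with median-of-ratios scaling (-0.18 each), as did Fkbp5 in T-like cells (-0.41 as reported, -0.12 with that scaling).

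The fourth question was whether target transcripts fell in the same NK-like cells. Few pairs passed, and some of those that did changed with the stage or the thinning. Cells were thinned to 3000 UMIs and split by a UMI of 1 gene, and the level of each other gene was compared between cells with and without it, 30 ordered pairs in each library. Of these, 1 pair in DR and 4 pairs in control were called higher and none lower. In control, Sgk1 stood at 77.9 CPM in the 1601 cells with a Tsc22d3 UMI and 59.1 CPM in the 2832 cells without one (log2 0.40, 0.20 to 0.59). The reverse split gave Tsc22d3 204 CPM with and 161 CPM without a Sgk1 UMI (log2 0.34, 0.19 to 0.49). In DR the Sgk1 split by Tsc22d3 gave 35.8 and 29.1 CPM (log2 0.30, 0.01 to 0.58), just under the limit. Splitting by a Tsc22d3 UMI called 1.92% of all genes higher and 1.52% lower in DR, and 1.4% and 1.76% in control.

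The other 3 calls were Klf9 by Tsc22d3 in control (23.1 CPM with and 17.2 CPM without, log2 0.43), Sgk1 by Nr3c1 in control (79.9 and 59.2 CPM, log2 0.43) and Sgk1 by Fkbp5 in DR (41.0 and 31.0 CPM, log2 0.41). The DR pair turned to -0.51 within Itgam-only cells and to -0.13 unthinned, and Klf9 by Tsc22d3 in control turned to -1.14 within Cd27-only cells. In those control Cd27-only cells a Klf9 UMI was found in 3.46% of 635 thinned cells, so the value of -1.14 rests on few counts. Among all genes, a split by Nr3c1 called 1.18% higher in control, a split by Sgk1 3.31% in control and a split by Fkbp5 2.29% in DR. Fkbp5 split by a Tsc22d3 UMI stayed between the limits in both libraries, with log2 ratios of 0.07 (-0.16 to 0.29) in DR and -0.02 (-0.27 to 0.23) in control. Across single cells Pearson correlations over the 15 pairs ranged from -0.014 to 0.050 in DR (4289 cells) and from 0.001 to 0.061 in control (4433 cells), values too weak in counts this sparse to read as a relation. Since Sgk1, Tsc22d3 and Klf9 were all higher in Itgam-only than in Cd27-only cells, the split was repeated within stages. For Sgk1 split by Tsc22d3 in control the log2 ratio was 1.01 (0.19 to 1.79) in Cd27-only cells, 0.33 (-0.15 to 0.79) in double-positive cells, 0.29 (0.04 to 0.54) in Itgam-only cells and 0.07 (-0.50 to 0.63) in cells with neither.

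**Figure D4:**
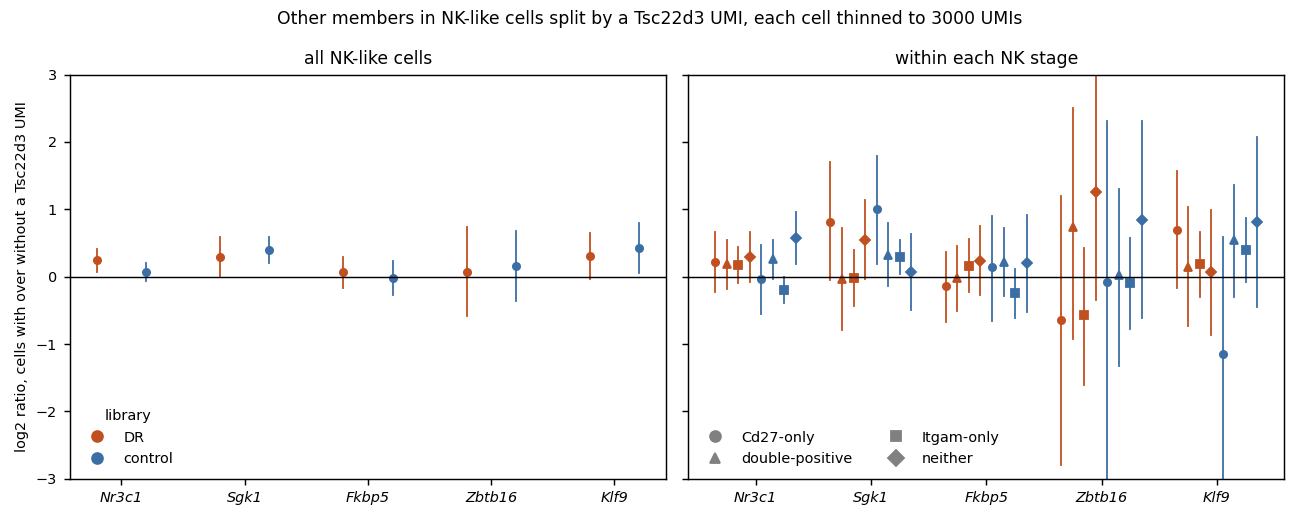
Log2 ratio of each gene's level in NK-like cells with a Tsc22d3 UMI over cells without one, after thinning each cell to 3000 UMIs, for all NK-like cells (left) and within each NK stage (right; symbols are stages), DR left of control, with 95% counting intervals, some of which run past the axis. Over all NK-like cells, Sgk1 lies at 0.30 in DR and 0.40 in control and Fkbp5 at 0.07 and -0.02.

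Genes with the most similar pattern were ranked by Pearson's r of log2(CPM + 1) over 13 profiles of cell class by library, among 5639 genes. The profiles of 1 library share its depth and free RNA, so r is a description. Nr3c1 was most like Bdp1 (r = 0.962), followed by Ddx17, Nsd1, Kmt2c and Senp5. Tsc22d3 had the loosest companions, Acp5 (r = 0.837), Tspan32, Sp3os, Zc3h6 and Edem1. Sgk1 was most like Fam104a (r = 0.930), then Pced1b, Itga6, Rpa1 and Tuba1a. Fkbp5 was most like H2afy (r = 0.979), then Sdf4, Sntb2, Fam107b and Snrk, and Zbtb16 most like Coro2a (r = 0.979), then Stk24, Ankrd13a, Samsn1 and Clnk. Klf9 was most like Armcx5 (r = 0.953), then Whamm, Ythdf3, Fam160b1 and Ppp6r3. None of the 6 genes was among the 5 nearest of another, but Zbtb16 and Klf9 were not ranked and could not be. The closest pair was Klf9 with Zbtb16 (r = 0.822), whereas Tsc22d3 correlated at 0.013 with Sgk1 and at -0.556 with Nr3c1.

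The rest of the pathway was described by 6 lists in all NK-like cells, DR against control. Of all genes, 3.07% were called higher and 7.99% lower, and the all-gene median was -0.066. The lists were chosen with earlier results of these data known, so counts of calls in them are not independent of these data. None of the 13 chaperone and co-chaperone genes that hold the receptor was higher and 3 were lower: Stip1, the HSP70 to HSP90 adaptor (47.3 and 69.3 CPM, log2 -0.55), Fkbp4, the co-chaperone FKBP52 (54.1 and 76.0 CPM, -0.49), and Hspa4 (98.2 and 124 CPM, -0.33). Cdc37, a kinase co-chaperone, stood between the limits at -0.29, and the list median was -0.18. Among the coregulators Ncor1, a corepressor, was lower (306 and 393 CPM, log2 -0.36), and Crebbp, a histone acetyltransferase (-0.26), and Nrip1, a corepressor (-0.16), lay between the limits. Of 6 genes that handle the ligand, 2 were measured and neither was called: Hsd11b1, the enzyme that regenerates active hormone inside cells, stood at 209 CPM in DR and 249 CPM in control (log2 -0.25), and Abcb1a, a steroid exporter, at 19.5 and 24.3 CPM (-0.31).

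Other genes known to be induced by glucocorticoids had a median of 0.19 over the 13 of 23 that were measured. Of these, 4 were higher and 1 lower, against 3.07% and 7.99% of all genes and their median of -0.066. The list was chosen with earlier results of these data known, so these counts are not independent of that choice. By class its median was 0.24 in Cd27-only, 0.18 in double-positive, 0.28 in Itgam-only and 0.12 in B-like cells. In cells with neither it was 0.05, with 1 higher and 1 lower, against 4.51% and 9.43% of all genes. In ILC1-like cells it was -0.02, with 2 higher and 1 lower, against 4.29% and 10.1%. In all NK-like cells Cxcr4 stood at 65.4 CPM in DR and 36.0 CPM in control (log2 0.86, 0.76 to 0.97). It encodes the receptor for the bone marrow chemokine CXCL12. Il7r, the interleukin-7 receptor, stood at 54.4 and 30.5 CPM (log2 0.84). By stage its log2 ratio was 0.42 in Cd27-only, 0.95 in double-positive and 1.19 in Itgam-only cells and -0.05 in cells with neither. Cd27-only cells, where Il7r is higher than in Itgam-only cells in both libraries (log2 Itgam-only over Cd27-only -2.79 in DR and -3.56 in control), made up 20.3% of DR and 14.0% of control NK-like cells. Ddit4, an inhibitor of mTORC1, stood at 118 and 86.8 CPM (log2 0.45). The fourth higher gene, Bcl2l11, which encodes the death promoter BIM, was named after its values were seen (86.2 and 65.9 CPM, log2 0.39). Xdh, xanthine dehydrogenase, was lower at 72.0 and 96.2 CPM (log2 -0.42). Il7r is also a marker of ILC1-like cells, and the 7 ILC1 markers, Il7r among them, summed to 75.1 CPM in DR and 44.3 CPM in control NK-like cells; their part in the Il7r value was not tested.

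Genes repressed by glucocorticoids gave 0 higher and 2 lower calls over the 8 of 13 that were measured, against 3.07% and 7.99% of all genes. The list median of -0.11 lay close to the all-gene median of -0.066. The chemokine genes Ccl3 (83.9 CPM in DR and 158 CPM in control, log2 -0.91) and Ccl4 (263 and 373 CPM, -0.50) were lower. For Ccl4 the log2 ratio was -0.92 in Cd27-only, -1.05 in double-positive and -0.44 in Itgam-only cells, 0.13 in cells with neither and 0.37 in ILC1-like cells. The cluster led by Ccl4 and Spp1 held 1.53% of DR and 3.54% of control NK-like cells. Icam1, an adhesion molecule, stood at 0.28 and Ifng, interferon gamma, at -0.25, both between the limits. Of the 12 immediate early and handling genes, which respond to cell isolation as well, 4 were measured. Klf6, a Krüppel-like factor, was higher (192 and 150.3 CPM, log2 0.35), and Ier2 (0.06), Btg2 (-0.06) and Junb (0.01) were between the limits.

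**Figure D5:**
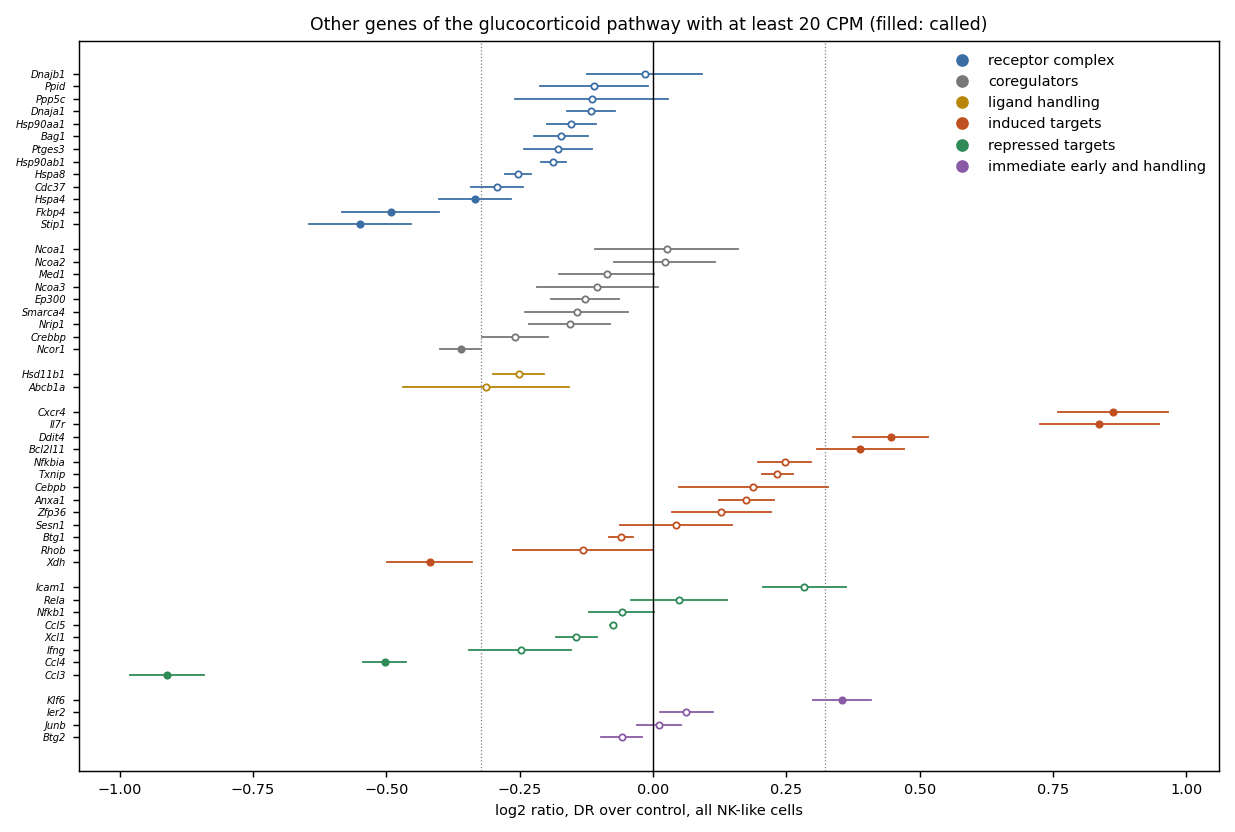
Log2 ratio of DR over control in all NK-like cells for the pathway genes reported here with at least 20 CPM, grouped by list and ordered within each, with 95% counting intervals; dotted lines mark the limits for a call and filled points are called. Cxcr4 and Il7r lie farthest to the right (0.86 and 0.84) and Ccl3 farthest to the left (-0.91).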

How the data were processed

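Whole-number UMI counts per gene and barcode were used as deposited by the authors; no normalization is stated. Per the file headers the matrices come from Cell Ranger 5.0.1, whereas version 2.1.1 is given, with build mm10, per the submitters' processing notes. Barcodes under 500 genes or over 10% mitochondrial UMIs were dropped (167 in DR, 215 in control). Scrublet's automatic threshold marked 0 cells, so the top-scoring share expected from the load was removed, 335 DR and 262 control cells. The lowest total was 501 UMIs, so free RNA could not be estimated from empty droplets.

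Both libraries were clustered together (scanpy 1.11.5; 2000 variable genes without the genes reported, 30 components, 15 neighbours, Leiden resolution 0.6) into 16 clusters, 9 of them NK-like. Clusters were named from marker lists, at least 3 markers and 50% of a list being needed. Naming limits, the doublet rule, counting gamma-delta T transcripts as innate, and the UMI limit for other lineages were set after the data were seen. The 127 DR and 89 control cells in unnamed clusters were left out.

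Raw counts were summed per class and library and given as CPM with exact Poisson intervals; the interval of a ratio is the exact binomial one, conditional on the summed UMIs, and shares are of all cells of a class. With 1 library per group, calls are by size only and nothing is tested. The calling rule was tested on simulated data. Named genes were the 6 members, up to 4 genes of each list with the largest absolute log2 ratio, and the 5 most similar genes; 1 list gene, with the count and median of its list, is not reported here. The members and lists were chosen with earlier results of these data known.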

Additional observations from a re-analysis of the deposited data

Results flagged for a closer look

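Fkbp5 moved in opposite directions between DR and control in different NK-like clusters, which brought it here; the difference between clusters was not tested. The log2 ratio of DR over control was 0.531 in the cluster led by Ccr2 and Ctla2a (50.04 CPM in DR, 34.6 CPM in control), 0.384 in the Cx3cr1 and Gpx8 cluster (65.9 and 50.5 CPM) and 0.729 in the Ccl4 and Spp1 cluster (77.3 and 46.6 CPM). It was -0.587 in the cycling cluster led by Hist1h1b and Pclaf, with 57.7 CPM in DR and 86.6 CPM in control (56 and 186 UMIs). In that cluster 25.7% of all genes from 20 CPM were called lower, and its all-gene median was -0.197.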

How the results depend on the processing

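The direction of all 6 genes in NK-like cells was the same under each alternative run. Log2 ratios ranged from -0.62 to -0.46 for Nr3c1, 0.60 to 0.72 for Tsc22d3, -1.09 to -0.91 for Sgk1, 0.08 to 0.22 for Fkbp5, -0.68 to -0.46 for Zbtb16 and 0.21 to 0.49 for Klf9. Values moved beyond the counting interval in these cases: Tsc22d3 to 0.70 with median-of-ratios scaling and without ribosomal and mitochondrial genes and to 0.72 with stages weighted equally, and, with equal weight for each of the 7 larger clusters, Nr3c1 to -0.46, Sgk1 to -0.91 and Klf9 to 0.49. The equal weighting of clusters was added after the data were seen, as were the background from 5 CPM and the version without low-RNA, cycling and Ccl4 and Spp1 clusters. Klf9 joined Tsc22d3 as higher, making 2 genes, under both other scalings, under both equal weightings and with the mean of per-cell CPM, and at a ratio limit of 1.5 Sgk1 alone (1 gene) stayed lower. Genes called higher, 180 as reported, numbered 312 with median-of-ratios scaling, 367 without ribosomal and mitochondrial genes, 528 from 5 CPM, 1221 with no filter and 50 at a limit of 1.5. Genes called lower, 468 as reported, numbered 271, 820, 1233 and 61 with median-of-ratios scaling, from 5 CPM, with no filter and at a limit of 1.5.

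Pairs called higher by split cells, 5 over both libraries, numbered 8 at 2000 UMIs, 3 unthinned, 3 within Cd27-only and 2 within Itgam-only cells. Shares over all genes are given only for the main thinning over all NK-like cells, so the counts of these alternatives have no background. Double-positive cells and cells with neither transcript are not in these counts. Pairs were called in double-positive cells too, among them Sgk1 by Fkbp5 in DR (log2 1.79, 0.98 to 2.56). Sgk1 by Fkbp5 in DR turned to -0.51 within Itgam-only cells and -0.13 unthinned, and Klf9 by Tsc22d3 in control to -1.14 within Cd27-only cells, the last on few Klf9 UMIs. Klf9 in control B-like over NK-like cells turned to 0.16 with per-cell means, and the immediate early list's median to -0.023 from 5 CPM. The cause was not tested. Without doublet removal clusters were rebuilt and renamed, so that alternative changed the naming too. No paired analysis was possible because each group has 1 library and no result comes from a test. Counts of 0 to 3 UMIs (Zbtb16 in B-like and T-like cells) limit what depth can show.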
